A study of Mus musculus with 11 samples.

Results

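The genes described here are those that encode the proteins of the cytosolic ribosome. Their members were taken by name: protein-coding genes of the count table whose symbol begins with Rpl or Rps and a digit, together with Rpsa, Rplp0, Rplp1, Rplp2 and Fau, but without the Rps6k kinases and without names containing -ps. This gave 87 of the 54418 genes in the table, 52 with names in Rpl, 34 with names in Rps, and Fau. One member, Rps19bp1, is caught by its name but encodes a protein that binds RPS19 and is not a ribosome subunit. RNA-seq counts came from thymocytes (whole thymus suspensions, mostly immature T cells) of mice aged 8 to 12 weeks on a C57BL/6-WEHI background, from libraries that do not mark strand. Of the 11 mice, 4 were wild-type (wt), 4 lacked Zmat3 in the germline (Zmat3-/-), and 3 were triple knockouts (TKO, Puma-/-p21-/-Zmat3-/-) that carried in addition germline deletions of Puma, whose gene symbol is Bbc3, and p21, whose gene symbol is Cdkn1a. The comparisons ask what loss of ZMAT3, an RNA-binding protein encoded by a TRP53 target gene, does to thymocyte RNA alone, and what loss of PUMA and p21 adds. Expression is given as CPM, a gene's counts as parts per 1e6 of the library's counts after TMM scaling over all 11 mice.

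Ribosomal proteins are made in nearly equal amounts, since most are present once in every ribosome. Their mRNAs are short, abundant and mostly begin with a tract of pyrimidines (the TOP motif), through which growth signals acting by mTOR and LARP1 set their translation. Several free ribosomal proteins, above all RPL5 and RPL11, bind MDM2 when ribosome assembly is disturbed and so stabilise TRP53, which places these genes beside the pathway studied in these mice. In developing T cells, loss of RPL22 blocks the alpha-beta lineage, and RPL5, RPL10 and RPL22 are altered in T cell leukaemia.

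To show the start of these mRNAs, 30-base windows from 10 bases before to 20 bases from the annotated start were read on the transcribed strand from RefSeq promoters of GRCm38.p6, which held 67 of the 87 members. The feature searched was a C followed by at least 6 bases that are each C or T, and was chosen after the sequences were seen. It was in the window of 31 of 67 members (46.3%), against 15.6% of 27025 genes with a promoter. Capitals mark the run. The first 6 windows below hold one and include Rps27l, a TRP53 target gene, and Rpl22l1, the paralog of Rpl22. The last 4 windows hold none, which says only that the run is not in these letters, and belong to the MDM2-binding members Rpl5, Rpl11 and Rps2 and to Rpl10, whose counts stood apart from those of the other members.
Fau, chr19:6057937-6057966, plus strand: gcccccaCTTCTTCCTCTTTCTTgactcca
Rpl15, chr14:18270967-18270996, minus strand: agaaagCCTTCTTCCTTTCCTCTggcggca
Rps18, chr17:33955646-33955675, minus strand: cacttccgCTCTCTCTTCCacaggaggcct
Rps6, chr4:86857348-86857377, minus strand: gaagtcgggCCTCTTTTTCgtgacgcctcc
Rpl22l1, chr3:28805498-28805527, plus strand: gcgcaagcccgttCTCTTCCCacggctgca
Rps27l, chr9:66946076-66946105, plus strand: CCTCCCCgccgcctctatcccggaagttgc
Rpl5, chr5:107900518-107900547, plus strand: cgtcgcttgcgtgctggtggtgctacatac
Rpl11, chr4:136053374-136053403, minus strand: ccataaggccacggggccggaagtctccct
Rps2, chr17:24720053-24720082, plus strand: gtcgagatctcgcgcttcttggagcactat
Rpl10, chrX:74270806-74270835, plus strand: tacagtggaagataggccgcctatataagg
The 8 letters CCGGAAGT or their complement on the other strand were in the 300 bases around the start of 12 of 67 members (17.9%), against 4.31% of all genes. Both are descriptions of the letters, and no site was tested.

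Ribosomal protein genes have many processed copies elsewhere in the genome, and a read from identical sequence cannot be given to one of them. For each member, the share of its 31-base words that other genes also hold was counted, and the median over the 87 members was 42.0%, with 29 members over 50% and 8 under 10%. Chosen pairs of a member and a copy were aligned, not all members. In 4 of these pairs, another row of the table with the same coding sequence held most of the counts. For these pairs, 30 coding bases at or near the end of the coding sequence are shown, with the last 3 in capitals, since the identity is what makes the counts of these members uncertain.
Rpl5, chr5:107907964-107907993, plus strand: ctcagagctcaggaaagggctgctgaaAGC
Gm15500, chr7:114705273-114705302, minus strand: ctcagagctcaggaaagggctgctgaaAGC
Rpl10, chrX:74273035-74273064, plus strand: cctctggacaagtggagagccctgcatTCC
Rpl10-ps3, chr9:50344300-50344329, minus strand: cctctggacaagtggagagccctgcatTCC
Rpl12, chr2:32963824-32963853, plus strand: atcaacagtggtgcagtggagtgcccaGCT
Gm10275, chr10:29698799-29698828, minus strand: atcaacagtggtgcagtggagtgcccaGCT
Rps27, chr3:90212935-90212964, minus strand: cctacaggtggaaaagcaaggctgacaGAA
Rps27rt, chr9:114982483-114982512, minus strand: cctacaggtggaaaagcaaggctgacaGAA
The aligned coding bases had 0 mismatches in each pair, over 891 bases for Rpl5 and Gm15500, 642 for Rpl10 and Rpl10-ps3, 495 for Rpl12 and Gm10275, and 252 for Rps27 and Rps27rt. Rpl5 had a mean of 49.4 CPM over the 11 mice alone and 991 CPM with the 3 rows that hold at least 25% of its words. Rpl12 had 68.4 CPM alone and 868 CPM with such rows, and Rpl10 had 135 and 701 CPM. Rpl27a, which was not aligned, had 257 and 638 CPM. Rps27 had 12.9 CPM, against 502 CPM for its retrogene Rps27rt, which is itself a member.

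Of the 87 members, 84 passed the filter on low counts (20 counts in enough mice after scaling to the smallest library) in each comparison, with at least 164 counts in every mouse. The other 3 were Rpl3l, Rpl10l and Rpl39l, paralogs of Rpl3, Rpl10 and Rpl39, whose highest count in any mouse was 31, 0 and 36. Per kilobase of transcript, the scale on which genes can be compared, the 84 tested members had a median level of 733 CPM per kilobase, from 14.4 to 2221. The 3 highest were Rplp1 (2221), a protein of the stalk that recruits elongation factors, Rpl13a (2201) and Rps24 (1719). Rplp1 led in wt mice alone (2730 against 2303 CPM per kilobase for Rpl13a), and Rpl13a led in Zmat3-/- (2246 against 2013) and TKO mice (2007 against 1820). The lowest were Rps19bp1 (14.4), Rpl5 (24.2) and Rps27 (37.5), and with the rows that share its words Rpl5 stood at 485 CPM per kilobase. The level is set against the median length of a gene's annotated coding transcripts, so a long annotated form lowers it, as for Rps15a and Rps20.

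**Figure D1:**
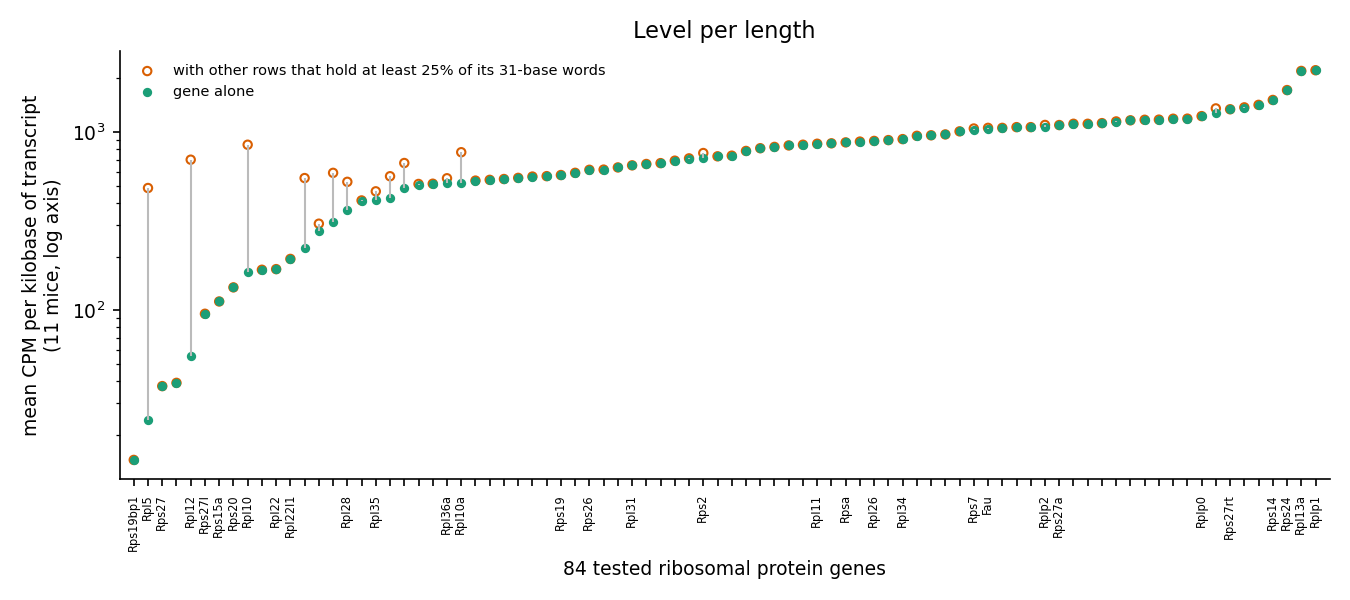
Mean CPM per kilobase of transcript over 11 mice (log axis) for the 84 tested ribosomal protein genes, in rising order, with labels for genes named in the text. Filled points are the gene alone and open points add other rows that hold at least 25% of its 31-base words (Rps27rt, itself a member, is not added to Rps27), which moved Rpl5 from 24.2 to 485 and left most members where they were.

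The libraries held 17669715 to 80207003 counts per mouse. Counts remained on the targeted genes: the range for Zmat3 was 10.1 to 27.9 CPM among wt, 5.41 to 6.98 CPM among Zmat3-/- and 7.44 to 8.27 CPM among TKO libraries. Bbc3 lay at 11.8 to 16 CPM in the TKO group and at 15.5 CPM or more elsewhere, and Cdkn1a at 2.24 to 3.62 CPM in the TKO group and at 3.61 CPM or more elsewhere, so the ranges of both just overlapped. The thymocyte markers Cd3e, Cd4, Cd8a, Rag1 and Thy1 were present in every mouse, with at least 315 CPM. Before any comparison, the wt libraries must be described, since they did not form 1 group. Xist, the RNA that coats the inactive X chromosome, was over 100 CPM (514 to 1526 CPM) in mice 1 and 2 of the wt group, mice 1 and 2 of the Zmat3-/- group and the TKO animal numbered 1, and at most 2.65 CPM in the other 6. The labels give no sex. Ddx3y, a gene of the Y chromosome, was at most 0.66 CPM in the mice with high Xist and 167 to 222 CPM in the other 6. By these genes the mice with high Xist are female and the others male.

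Ribosomal protein genes took 8.88% of all counts in wt mouse 1 and 7.09% in wt mouse 2, but 3.24% in wt mouse 3 and 3.25% in wt mouse 4. In the 4 Zmat3-/- mice they took 4.83%, 4.82%, 4.18% and 4.11%, and in the 3 TKO mice 4.45%, 4.67% and 3.83%. All mutant mice therefore lay between the wt pairs. The means were 5.62% ± 2.83 (SD, n = 4) in wt, 4.49% ± 0.39 (n = 4) in Zmat3-/- and 4.32% ± 0.43 (n = 3) in TKO thymocytes, so the differences of -1.13 percentage points (Zmat3-/- less wt) and -1.30 (TKO less wt) were smaller than the SD within wt but larger than that within either mutant group. The difference of -0.17 (TKO less Zmat3-/-) was smaller than the SD within either. Without wt mouse 1, the difference from wt was -0.04 points for Zmat3-/- and -0.21 points for TKO, and without TKO mouse 3, TKO less Zmat3-/- was 0.07 points. Among mice with high Xist, Zmat3-/- less wt was -3.16 points and TKO less wt -3.54 points, and among mice with low Xist the differences were 0.90 and 1.00 points, the opposite direction. With counts on mitochondrially encoded genes left out of the total, the share was 5.93% ± 3.03 in wt, 5.03% ± 0.31 in Zmat3-/- and 4.66% ± 0.61 in TKO mice. TKO less Zmat3-/- then exceeded the SD within Zmat3-/- but not that within TKO. On that scale wt mice 2 to 4 had 7.56%, 3.39% and 3.39%, and without wt mouse 1 the Zmat3-/- mean was above the wt mean.

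**Figure D2:**
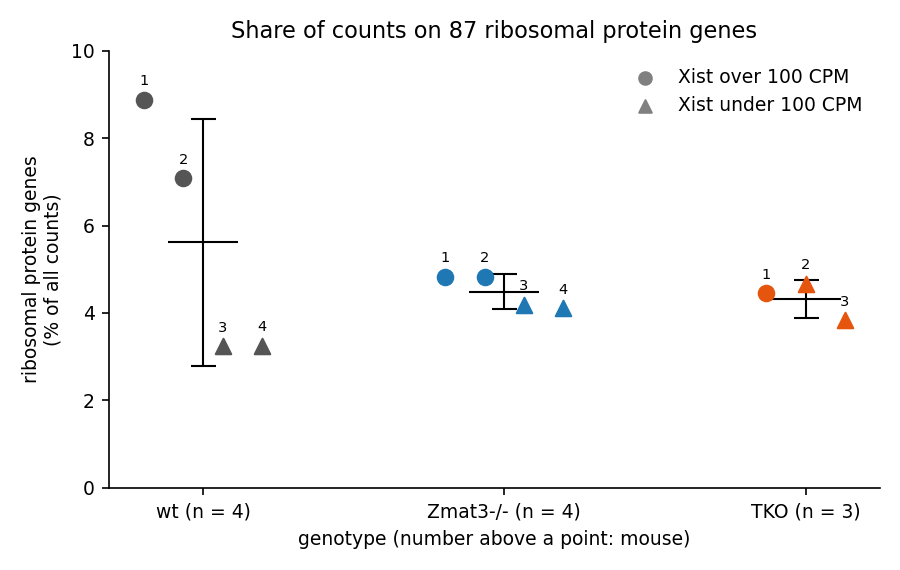
Percent of all counts on the 87 ribosomal protein genes in each mouse, by genotype, with circles for mice with Xist over 100 CPM, triangles for the others, and mean and SD as black bars. The wt mice fall into a pair at 8.88% and 7.09% and a pair at 3.24% and 3.25%, with every mutant mouse from 3.83% to 4.83%.

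The wt pattern held for nearly every member. In 81 of 84 tested members both wt mice 1 and 2 were above the 9 other mice, against 27.8% of the 13522 genes tested over all mice, and in 75 wt mice 3 and 4 were in addition below all others, against 8.64% of all genes. The exceptions to the first count were Rpl5, Rpl10 and Rps27, all with copies of the same coding sequence. Rpl12, which also has such a copy, was no exception (94.5 and 83.6 CPM, against at most 70.6 CPM in the 9 other mice). The median ratio of wt mice 1 and 2 to wt mice 3 and 4 was 2.69, from 0.85 for Rpl10 to 3.55 for Rpl35, and the median over all genes was 1.02. The coefficient of variation between mice, the SD as a percent of the mean, had a median over members of 56.5% in wt, 6.70% in Zmat3-/- and 13.4% in TKO thymocytes, against 25.5%, 8.43% and 11.6% over all tested genes. A single component held 92.6% of the variance of the members over the 11 mice, which describes how closely they moved together.

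Rpl10 encodes a protein of the large subunit that is added late and is mutated in T cell leukaemia. It had 109, 115, 104 and 158 CPM in wt mice 1 to 4, 134, 131, 152 and 167 CPM in Zmat3-/- mice, and 132, 121 and 164 CPM in TKO mice. Its own row thus did not follow the other members. With the 9 rows that share its words, it had 1128, 948, 487 and 470 CPM in wt mice, with 611 to 717 CPM among Zmat3-/- and 622 to 680 CPM among TKO mice, the order of the other members.

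**Figure D3:**
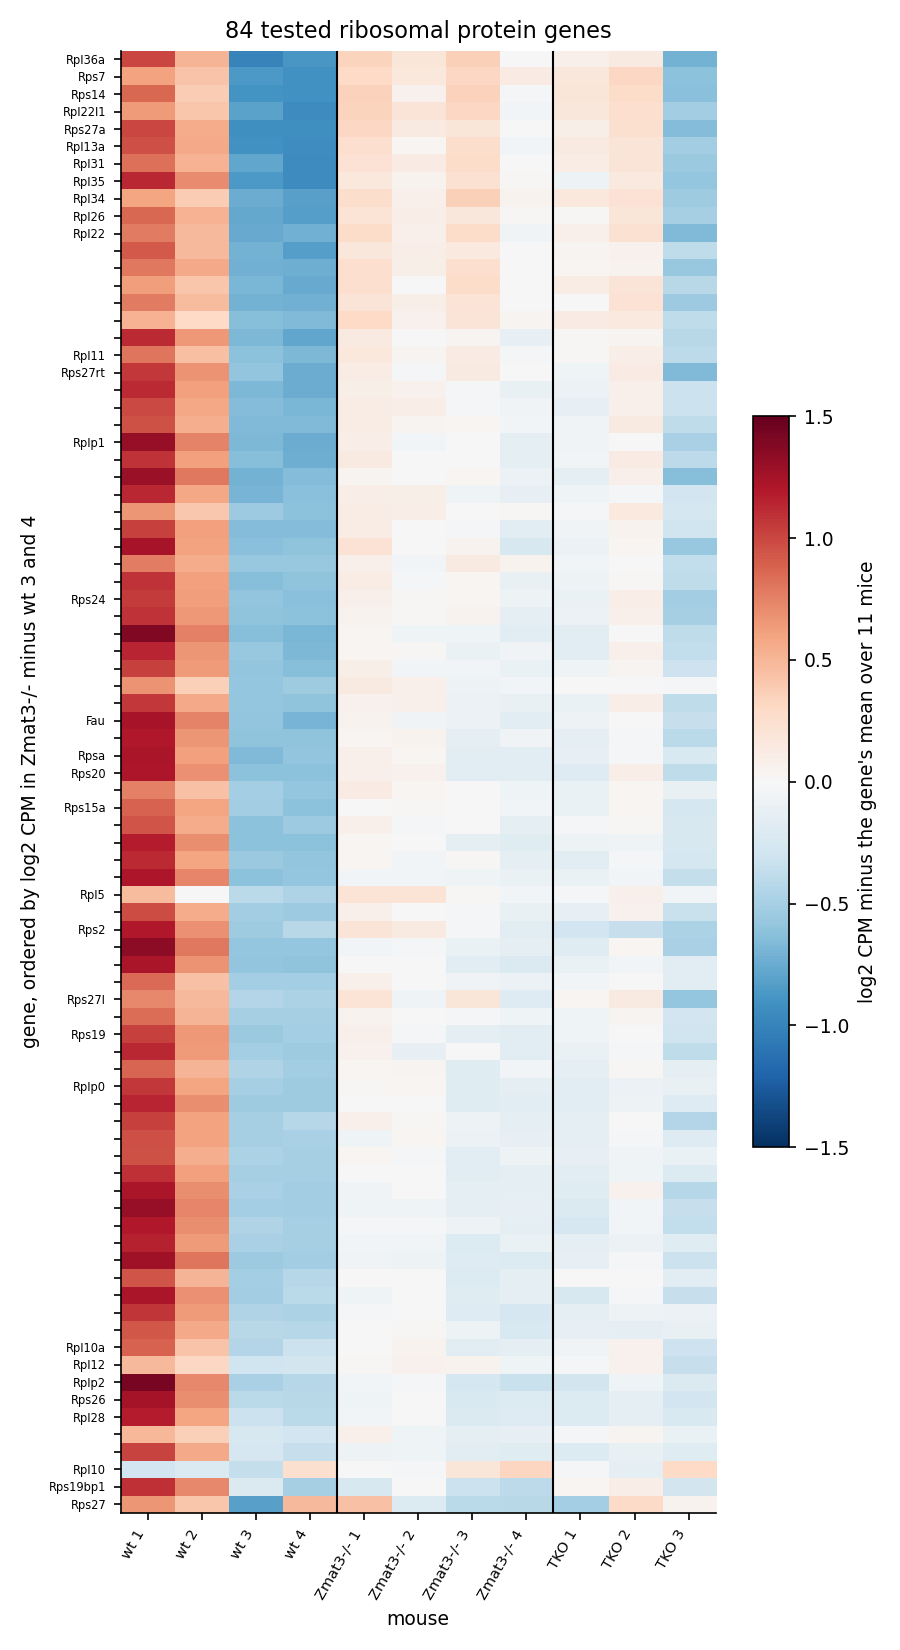
Log2 CPM of each of the 84 tested ribosomal protein genes less its mean over 11 mice, with 1 column per mouse and genes ordered by their level in Zmat3-/- mice less that in wt mice 3 and 4 (genes named in the text are labelled). Nearly all rows are high in wt mice 1 and 2 and low in wt mice 3 and 4. The upper rows are also low in TKO mouse 3, and Rpl10 near the bottom does not show the wt pattern.

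In the wt mice, the level moved with transcript length over all protein-coding genes tested. Protein-coding genes tested over all mice were cut into 5 bins of transcript length, and 77 of the 84 tested members lay in the shortest, up to 1532 bases. In that bin the median of log2 CPM less each gene's mean was 0.68 in wt mouse 1, 0.42 in wt mouse 2, -0.24 in wt mouse 3 and -0.27 in wt mouse 4, and in the longest bin it was -0.56, -0.42, 0.16 and 0.17. In the mutant mice the shortest bin lay between -0.21 (TKO mouse 3) and 0.01. The members stood beyond the shortest bin, with medians of 1.02, 0.59, -0.58 and -0.60 in wt mice 1 to 4. Nuclear genes for the mitochondrial ribosome (78 genes) showed 0.79, 0.51, -0.27 and -0.31, and those for the respiratory chain 0.96, 0.53, -0.39 and -0.40, so the wt pattern was not particular to the cytosolic ribosome. The rank correlation of transcript length with the ratio of wt mice 1 and 2 to wt mice 3 and 4 was -0.63 over 11896 protein-coding genes and -0.31 over the 84 members, where all points share the same libraries. Depth also separated the wt pairs, at 34272640 and 39510054 counts in wt mice 1 and 2 and 22375732 and 23337162 in wt mice 3 and 4. Among TKO mice the order was the other way, with the fewest counts (17669715) and a share of 4.67% in mouse 2 and the most (80207003) and 3.83% in mouse 3. The wt pairs also differed in the median of 14 myeloid markers, at 0.36, 0.48, -0.45 and -0.54, with none of the 14 at 0 in all mice and a summed level of 364 to 677 CPM among wt, 484 to 669 CPM among Zmat3-/- and 307 to 739 CPM among TKO mice. The median of 5 tested erythroid genes ran in the opposite direction, at -1.39, -1.53, 1.80 and -0.13 in wt mice 1 to 4. The summed level of the 8 listed erythroid genes, none at 0 in all mice, was 883 to 8772 CPM among wt, 1169 to 5799 CPM among Zmat3-/- and 2751 to 3765 CPM among TKO mice. Other lists separated the wt pairs as well. In wt mice 1 to 4 the medians were 0.45, 0.68, -0.36 and -0.02 for B cell genes and 0.26, 0.24, 0.02 and -0.04 for thymocyte genes. For mitochondrially encoded genes they were -0.11, -0.15, -0.86 and -0.97. The median of cycling genes did not separate the pairs (0.49, -0.10, -0.01 and -0.07). Xist, length, depth and the lists that separate the same wt mice cannot be told apart, and the part of each in the result was not tested.

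**Figure D4:**
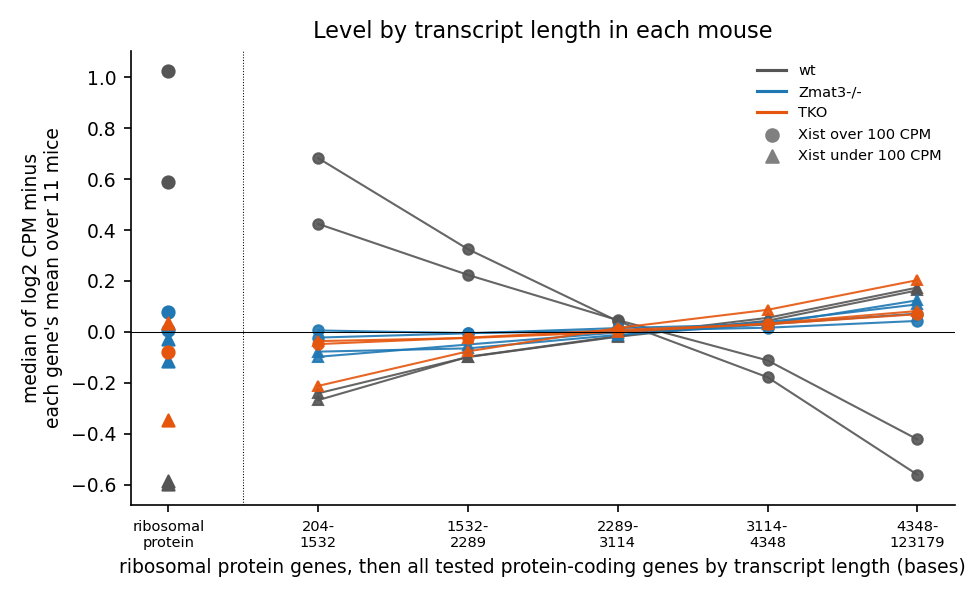
Median of log2 CPM less each gene's mean over 11 mice, in each mouse, for the tested ribosomal protein genes (left) and for all tested protein-coding genes in 5 bins of transcript length in bases. Wt mice 1 and 2 fall from 0.68 and 0.42 in the shortest bin to -0.56 and -0.42 in the longest, and the 9 other mice run the other way. The rise is largest in wt mice 3 and 4 and TKO mouse 3, from -0.24, -0.27 and -0.21 to 0.16, 0.17 and 0.20.

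In the comparison of Zmat3-/- with wt thymocytes, 71 of the 84 tested members had a negative log2 fold change (log2FC, 53.2% of all genes), with a median of -0.29 against -0.03 over 13494 genes. Without wt mouse 1, 29 were negative and 55 positive, with a median of 0.06, and leaving out one other wt mouse gave medians of -0.50 to -0.19. No member passed an adjusted p of 0.05 by edgeR's quasi-likelihood test, where 0.763% of all genes did (0.4% higher and 0.363% lower), and none passed with a log2FC beyond 1.5, where 0.319% of all genes did. No member passed an unadjusted p of 0.05 either, against 16.1% of all genes, and DESeq2 called none. The groups overlapped for every member, while 7.01% of all genes were higher and 7.21% lower without overlap. The largest fall was that of Rplp2, a partner of Rplp1 in the stalk. Rplp2 had 1181, 726, 314 and 326 CPM in wt mice and 427, 433, 368 and 348 CPM in Zmat3-/- mice, which all lay between the wt pairs. Its log2FC was -0.68 (standard error (SE) 0.40, adjusted p = 0.443 by edgeR), and ran from -0.90 to -0.21 with 1 mouse left out at a time. The largest rise was that of Rpl10, with a log2FC of 0.27 (SE 0.15, adjusted p = 0.425), which turned to -0.15 with the rows that share its words. The smallest adjusted p, 0.383, was that of Rps19bp1.

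In the comparison of TKO with wt thymocytes, 79 of the 84 tested members had a negative log2FC (54.2% of all genes), with a median of -0.41 against -0.04 over 13260 genes. Without wt mouse 1, 52 were negative and 32 positive, with a median of -0.04, and leaving out one other wt mouse gave medians of -0.61 to -0.28. Again no member was called by edgeR at an adjusted p of 0.05 (0.294% of all genes, 0.249% higher and 0.0452% lower) or in addition with a log2FC beyond 1.5 (0.241%), no member had an unadjusted p under 0.05 (10.3% of all genes), and DESeq2 called none. No member was without overlap, against 6.43% of all genes higher and 7.49% lower. The largest fall and the smallest adjusted p were those of Rps2, which is given below, with a log2FC of -0.78 (SE 0.43, adjusted p = 0.561) that came to -0.42 with the rows that share its words. With 1 mouse left out at a time, the log2FC of Rps2 ran from -0.99 to -0.39. The largest rise was that of Rpl10, with a log2FC of 0.19 (SE 0.19, adjusted p = 0.703), which turned to -0.20 with the rows that share its words. The wt mice enter both comparisons, so the 2 medians are not independent. The median SE of a member's log2FC was 0.36 for Zmat3-/- and 0.43 for TKO against wt, and 0.10 for TKO against Zmat3-/-, so differences from wt of this size were not detectable with these wt mice. With each mouse's trend on transcript length taken out, the median log2FC was -0.14 for Zmat3-/- and -0.17 for TKO against wt and -0.06 for TKO against Zmat3-/-, and edgeR again called no member.

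Against Zmat3-/- thymocytes, TKO thymocytes had a negative log2FC in 80 of 84 members (52.7% of all genes), with a median of -0.11 against -0.01 over 13124 genes. Without TKO mouse 3, 50 were negative and 34 positive, with a median of -0.0073, and without TKO mouse 2 the median was -0.20. EdgeR called none at an adjusted p of 0.05 (0.221% of all genes, 0.145% higher and 0.0762% lower) or in addition with a log2FC beyond 1.5 (0.122%), 1 had an unadjusted p under 0.05 (4.5% of all genes), and DESeq2 called that one, Rps2 (0.556% of all genes). A test for any difference among the 3 genotypes called no member either (1.88% of 13522 genes), and none at an unadjusted p of 0.05 (15.8%), and DESeq2 called none. Rps2, a small-subunit protein that also binds MDM2, had 1526, 1072, 461 and 498 CPM in wt mice, 761, 733, 656 and 596 CPM in Zmat3-/- mice and 547, 525 and 479 CPM in TKO mice. All TKO mice lay within the wt range and below every Zmat3-/- mouse. It was the 1 member lower without overlap in TKO mice, where 2.68% of all genes were, and no member was higher without overlap (2.96%). Its log2FC was -0.42 (SE 0.10, unadjusted p = 0.00200, adjusted p = 0.376 by edgeR), and the adjusted p of DESeq2 was 0.00577. An exact two-sided permutation test over the 7 mice gave p = 0.0571 on log2 CPM, where the smallest p possible is 0.0286. Summed over the 11 pseudogene rows named after Rps2, counts moved the other way. They were 2.09 to 3.33 CPM in Zmat3-/- and 141, 153 and 139 CPM in TKO mice. Most of these counts were on Rps2-ps10, with 1.45 to 2.57 CPM in Zmat3-/- and 128, 139 and 126 CPM in TKO mice. Its aligned coding bases had 5 mismatches with Rps2 over 879 bases. For TKO against Zmat3-/-, edgeR called Rps2-ps10 higher (log2FC 5.98, adjusted p = 6.46e-09), and also Rps2-ps6 (5.34, adjusted p = 1.31e-07). The paper lists Rps2 as differentially expressed in TKO thymocytes against both wt and Zmat3-/-. With the 25 rows that share its words, Rps2 had 600 to 767 CPM in Zmat3-/- and 625 to 697 CPM in TKO mice, the groups overlapped, and the log2FC was -0.06. Rps2 lies on chromosome 17 at 4.37 Mb from Cdkn1a.

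Since the wt libraries stood apart, each comparison was repeated without either wt pair. The pairs differ in the members' own levels, with nearly all mutant values between them, so the direction of these calls was given beforehand and the counts are a description. Without wt mice 1 and 2, edgeR called 79 of 85 members higher and 0 lower in Zmat3-/- (16.8% and 16.1% of all genes), and 27 of 84 higher and 0 lower in TKO mice (2.96% and 5.19%). Without wt mice 3 and 4, it called 81 of 84 members lower and 1 higher in Zmat3-/- (28.7% and 27.4%), and 75 lower and 0 higher in TKO mice (21.7% and 22%). Both directions against wt thus depended on which wt mice were kept. A test for any difference among the genotypes called 72 members without wt mice 1 and 2 (18% of all genes) and 75 without wt mice 3 and 4 (50.4%).

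Mice were also compared within an Xist level. Xist divides the wt mice into the same pairs as the ribosomal protein share above, and all Zmat3-/- mice lay between those pairs in 80 members (13% of all genes) and all TKO mice in 75 (11.1%). Opposite directions at the 2 levels were therefore given by the pattern already described, and the counts that follow are a description and no further evidence of it. Among mice with high Xist, edgeR called 74 of 84 members lower in Zmat3-/- than in wt thymocytes and 0 higher, with a median log2FC of -0.78 (20.3% of 14270 genes lower, 21.8% higher). Among mice with low Xist, it called 79 of 85 members higher and 0 lower, with a median over the 85 of 0.51 (14.4% of 13774 genes higher, 13.8% lower). Of the 84 members tested at both levels, 71 were called in opposite directions, against 9.08% of all genes. The difference between the 2 differences passed an adjusted p of 0.05 in 81 of 85 members (42.3% of 14359 genes). At high Xist the TKO group is 1 mouse, which the fit assumes to vary like the other mice. With that assumption, 56 of 84 members were lower in TKO than in wt at high Xist (8.71% of genes lower, 11.4% higher, median -0.92), 1 was higher at low Xist (0.988% higher, 2.03% lower, median 0.44), and the difference between the differences passed in 69 (22.2% of 13776 genes). With the same single TKO mouse, Rps2 was the 1 member lower in TKO than in Zmat3-/- at high Xist (1.41% of genes lower, 1.13% higher), and none was called at low Xist (0.0691% higher, 0.0384% lower). The difference between those differences passed in 0 of 84 members and 0 of 13405 genes by edgeR, with a smallest adjusted p of 0.546 and 2 unadjusted p under 0.05 among members (8.71% of genes). The test for any difference among the genotypes called 74 members at high Xist (34.2% of genes) and 14 at low Xist (7.39%). With 2 wt mice at each level, the Xist level and the other properties of these libraries cannot be told apart.

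**Figure D5:**
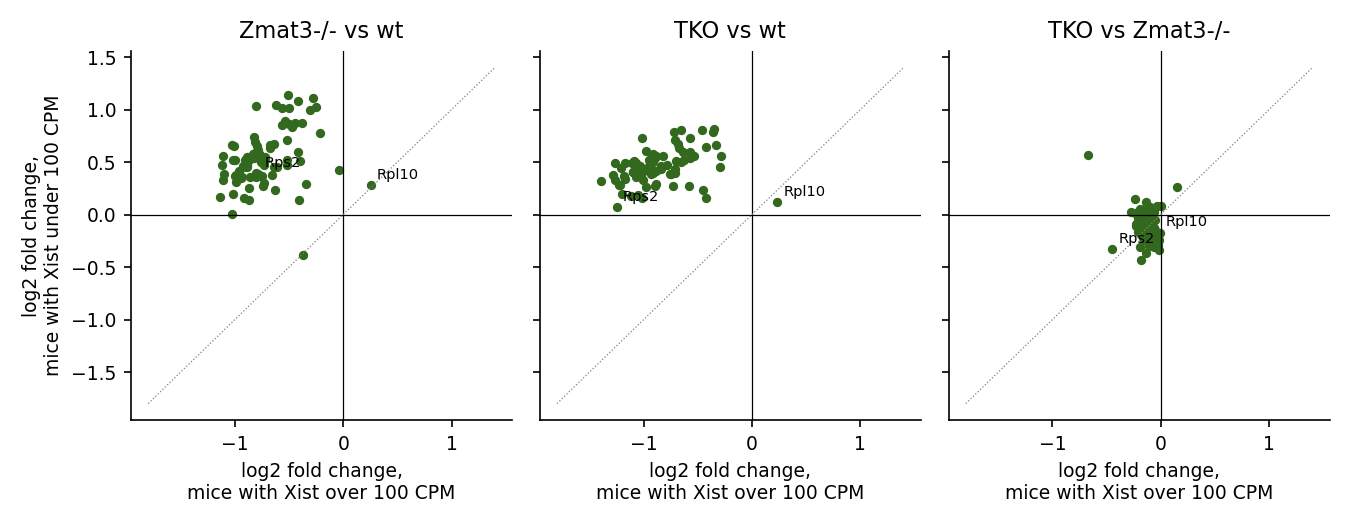
Log2 fold change of each tested ribosomal protein gene in mice with low Xist (vertical) against mice with high Xist (horizontal), for the 3 comparisons. For Zmat3-/- and TKO against wt nearly all points lie at the upper left, below 0 at high Xist and above 0 at low Xist (medians over the 84 members plotted of -0.78 and 0.52, and -0.92 and 0.44), while for TKO against Zmat3-/- they lie near 0.

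The 14 members known to bind MDM2 all passed the filter. None was called by edgeR in any comparison, 1 (Rps2, TKO against Zmat3-/-, where 4.5% of all genes did) had an unadjusted p under 0.05, and their median log2FC was -0.08 for Zmat3-/- and -0.28 for TKO against wt, and -0.17 for TKO against Zmat3-/-. Rpl11 had 1194, 938, 448 and 428 CPM in wt mice, 765, 706, 747 and 678 CPM in Zmat3-/- mice, and 690, 733 and 520 CPM in TKO mice. All mutant mice lay between the wt pairs, and TKO mouse 3 was the lowest of them. Its log2FC was -0.04 for Zmat3-/- and -0.21 for TKO against wt (SE 0.32 and 0.39). Rps7 had 1302, 1151, 470 and 457 CPM in wt, 1051, 957, 1066 and 932 CPM in Zmat3-/- and 964, 1064 and 561 CPM in TKO mice. In Rps7 TKO mouse 3 was close to wt mice 3 and 4, and the other mutant mice were closer to wt mice 1 and 2. Of the 10 genes of the TRP53 and MDM2 axis listed beside them, 8 were tested, none was called or had an unadjusted p under 0.05 in any comparison by edgeR, and the medians were 0.16, 0.15 and 0.04. Mdm2 itself had a log2FC of 0.0026 for Zmat3-/- and 0.03 for TKO against wt (SE 0.09 and 0.12).

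Rpl22 and its paralog Rpl22l1, which RPL22 is known to hold down, moved side by side. Rpl22 had 565, 463, 195 and 199 CPM in wt, 400, 348, 400 and 317 CPM in Zmat3-/- and 346, 386 and 208 CPM in TKO mice. Rpl22l1 had 154, 132, 56.6 and 51.2 CPM in wt, 125, 113, 122 and 95.9 CPM in Zmat3-/- and 111, 118 and 68.6 CPM in TKO mice. In both genes TKO mouse 3 was near wt mice 3 and 4 and the other mutant mice were between the wt pairs. The log2FC of Rpl22l1 was 0.23 for Zmat3-/- against wt (SE 0.35, adjusted p = 0.764), and with 1 surrogate variable in the fit it was 0.46 with an adjusted p of 0.0446. It was the 1 member of 84 called in that fit, where 17.1% of all genes were. It lies on chromosome 3 at 3.53 Mb from Zmat3. Rps27l, a paralog of Rps27 and a TRP53 target gene, had 81.7, 69.0, 36.4 and 35.5 CPM in wt, 56.9, 47.3, 56.1 and 43.3 CPM in Zmat3-/- and 50.4, 54.1 and 33.0 CPM in TKO mice. TKO mouse 3 was the lowest of all mice and the groups overlapped. Of 7 paralogs and relatives tested, edgeR called 0 in any comparison and 0 had an unadjusted p under 0.05, where 16.1% (Zmat3-/- against wt), 10.3% (TKO against wt) and 4.5% (TKO against Zmat3-/-) of all genes did.

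The 3 stalk proteins Rplp0, Rplp1 and Rplp2 had negative log2FC in each comparison, with medians of -0.43, -0.58 and -0.06. Rplp1 had 2511, 1697, 635 and 605 CPM in wt, 930 to 1086 CPM in Zmat3-/- and 980, 1016 and 728 CPM in TKO mice. Among the members whose human counterparts are mutated in disease, Rps19, mutated in Diamond-Blackfan anaemia, ranged from 287 to 857 CPM among wt, 374 to 442 CPM among Zmat3-/- and 341 to 424 CPM among TKO mice. Rpsa, mutated in isolated congenital asplenia, ranged from 911 to 3374 CPM among wt, 1286 to 1522 CPM among Zmat3-/- and 1228 to 1426 CPM among TKO mice. Fau and Rps27a are made as fusions to a ubiquitin-like protein or to ubiquitin. Fau had 1145, 814, 324 and 299 CPM in wt mice, with 431 to 503 CPM among Zmat3-/- and 384 to 484 CPM among TKO mice. Rps27a had 1453, 1067, 382 and 382 CPM in wt, 719 to 895 in Zmat3-/- and 765, 851 and 459 CPM in TKO mice. In all of these the wt range held every mutant mouse.

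Among the mutant mice, the members differed in how far they stood above wt mice 3 and 4 and in how low they were in TKO mouse 3. TKO mouse 3 was the lowest TKO mouse in 75 of 84 members, against 35.3% of all genes. The median of its log2 CPM less the mean of TKO mice 1 and 2 was -0.31 over the members and 0.01 over all genes. In 20 members it was lower by at least 0.5, and in 5 it was higher. The 11 members that stood highest in Zmat3-/- mice over wt mice 3 and 4 (by 0.89 to 1.16 on the log2 scale) were Rpl36a, Rps7, Rps14, Rpl22l1, Rps27a, Rpl13a, Rpl31, Rpl35, Rpl34, Rpl26 and Rpl22, and were named after their values were seen. All 11 were lower in TKO mouse 3, by -0.60 to -0.85. Among members that stood little above wt mice 3 and 4 in Zmat3-/- mice, also taken after their values were seen, TKO mouse 3 differed from TKO mice 1 and 2 by -0.06 for Rpl28 and -0.12 for Rps26, but by -0.32 for Rpl10a, -0.34 for Rps19bp1 and -0.36 for Rpl12. Over the 84 members, the rank correlation between these 2 differences was -0.78, a description in which all points share the same libraries. TKO mouse 3 had the most counts of all mice (80207003), and its mitochondrially encoded RNA made up 3.86% of counts, against 8.44% and 9.29% in TKO mice 1 and 2, 6.54% to 14.6% in Zmat3-/- and 4.25% to 6.31% in wt mice. Short transcripts were also low in this mouse, with a median in the shortest length bin of -0.21 against -0.05 and -0.04 in TKO mice 1 and 2, and 0.20 in the longest bin. The part of these in the result was not tested.

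Of the members near a targeted gene, 5 lay within 20 Mb of Bbc3, 7 of Cdkn1a (6 tested) and 1, Rpl22l1, of Zmat3. EdgeR called none in the 3 comparisons, while DESeq2 called Rps2 and the fit with 1 surrogate variable called Rpl22l1, as given above. Rpl10a, the nearest at 0.76 Mb from Cdkn1a, had a log2FC of -0.04 for TKO against Zmat3-/- (adjusted p = 0.984).

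Other genes of protein synthesis were counted from lists, in the order Zmat3-/- against wt, TKO against wt and TKO against Zmat3-/-. Over all genes, 16.1%, 10.3% and 4.5% had an unadjusted p under 0.05 in these comparisons. Of 18 genes for translation factors and other mRNAs of the TOP class, edgeR called 0 in any comparison (2, 0 and 0 at an unadjusted p under 0.05), with medians of -0.07, -0.14 and -0.05. Of 64 ribosome assembly genes, 0 were called (4, 2 and 3 unadjusted), with medians of -0.06, -0.07 and -0.0020. Of the 78 mitochondrial ribosomal protein genes, 0 were called (10, 6 and 1 unadjusted), with medians of -0.33, -0.39 and -0.08. Among 11 regulators of growth, Myc, which drives transcription of these genes, had a log2FC of -0.61 (SE 0.23, adjusted p = 0.249) for Zmat3-/- and -0.64 (SE 0.26, adjusted p = 0.454) for TKO against wt, and none of the 11 was called (3, 2 and 1 unadjusted). Rps6kb2, a kinase of RPS6, had -0.52 (SE 0.09, adjusted p = 0.0528) and -0.67 (SE 0.13, adjusted p = 0.138).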

How the data were processed

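Of 11 thymocyte libraries, 4 were wt, 4 Zmat3-/- and 3 TKO, each from 1 mouse. Salmon, on GRCm38.p6, was used by the authors, who deposited estimated counts per gene without normalization, used here as they stand. All 598598 values are whole numbers. Names, classes and lengths came from GENCODE M21 (the paper used vM25), which matched 54166 of 54418 genes. A gene was tested where, after scaling every library to the smallest, the number of mice with 20 counts or more reached the size of the smaller group. Xist, chromosome Y, ribosomal RNA and immunoglobulin pseudogenes were not tested, following the paper. The test was edgeR 4.0.16 in R 4.3.3 (TMM, quasi-likelihood F-test, two-sided, Benjamini-Hochberg over all genes tested). The SE is the absolute log2FC over the root of F. The paper used DESeq2 with sex and surrogate variables; DESeq2 1.42.0 and sva 3.50.0 were alternatives. Members and gene lists were chosen with earlier results of these data known. Genes were named from fixed lists (MDM2-binding, paralogs, stalk, ubiquitin fusions, disease), by call, by largest rise or fall, by highest or lowest level, and within 20 Mb of a targeted gene. Rpl35 and the 11 members set beside TKO mouse 3 were chosen after their values were seen. In simulated counts with a log2 change of 2 in 200 genes, edgeR recovered 98% for TKO with wt (13078 genes), 99% for Zmat3-/- with wt (13354) and 99% for TKO with Zmat3-/- (12965). Apart from that change the simulated mice shared a common mean per gene, without the split among wt mice described above. The recovery therefore does not apply to the members' differences from wt.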

Additional observations from a re-analysis of the deposited data

Results flagged for a closer look

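The differences from wt were not the same at the 2 Xist levels. By edgeR's test of the difference between the differences, at an adjusted p of 0.05, 69 of 84 members differed for TKO against wt (22.2% of all genes, median over members, low less high Xist, of 1.39 on the log2 scale) and 81 of 85 for Zmat3-/- against wt (42.3% of all genes, median 1.33). The medians over all genes were 0.01 and 0.0069. Xist divides the wt mice into the same pairs as the ribosomal protein share, so these counts restate that split, and the TKO group has 1 mouse at high Xist. Of 66 sets of values from groups of 4 mice examined for a single mouse far from the other 3, 0 had one. Such a search cannot flag the split of the wt mice into pairs, and the TKO group, with 3 mice, was not examined.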

How the results depend on the processing

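Every count of members called stayed at 0 with RLE size factors, TMM without ribosomal protein genes, both other low-count filters, Xist level as covariate, a transcript length offset and each mouse left out. With 1 surrogate variable, 1 member was called for Zmat3-/- against wt (Rpl22l1), and DESeq2 called 1 for TKO against Zmat3-/- (Rps2). The replicate numbers were not taken as pairing mice. Correlations of same-numbered mice ran from -0.0029 to 0.39. The means for different numbers were lower, at -0.081 (TKO and wt), -0.074 (Zmat3-/- and wt) and -0.036 (TKO and Zmat3-/-). Whether the numbers pair mice was not tested. With a replicate block, 0 members were called (smallest adjusted p 0.207 to 0.330), and Rpl22l1 turned to -0.11 (TKO against wt) and Rpl11 to 0.096 (Zmat3-/- against wt).

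Leaving out 1 mouse at a time gave median log2FC of -0.61 to -0.038 (TKO against wt), -0.50 to 0.063 (Zmat3-/- against wt, above 0 without wt mouse 1) and -0.20 to -0.0073 (TKO against Zmat3-/-). The share differences ran from -2.09 to -0.210, -1.92 to -0.0383 and -0.348 to 0.0705 points. Log2FC ranges that crossed 0 were -0.41 to 0.099 (Rpl11) and -0.20 to 0.31 (Rpl22l1) for TKO against wt, -0.24 to 0.26 (Rpl11) and -0.57 to 0.025 (Rps2) for Zmat3-/- against wt, and -0.35 to 0.0087 (Rpl22l1) for TKO against Zmat3-/-.

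The next alternatives were chosen after seeing the data. For TKO against wt, members called were 27 higher without wt mice 1 and 2 (2.96% of all genes, median 0.46, share 1.07 points), 75 lower without wt mice 3 and 4 (21.7%, share -3.67), 56 lower at high Xist (8.71%, share -3.54) and 1 higher at low Xist (0.988%, median 0.44, share 1.00). For Zmat3-/- against wt they were 79 higher (16.8%, median 0.57, share 1.24), 82 (81 lower, 28.7%, and 1 higher, 27.4%, share -3.50), 74 lower (20.3%, share -3.16) and 79 higher (14.4%, median 0.51, share 0.901). For TKO against Zmat3-/-, 1 was called at high Xist. For any difference the counts were 72, 75, 74 and 14 (18%, 50.4%, 34.2% and 7.39% of all genes). The length offset brought the median log2FC to -0.17 (TKO against wt), -0.14 (Zmat3-/- against wt) and -0.06 (TKO against Zmat3-/-), closer to 0 by over 1.5 times.

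Reversed log2FC for TKO against wt were Rps2 0.11 and Rpl11 0.57 without wt mice 1 and 2, Rps2 0.067 and Rpl11 0.52 at low Xist, Rpl22l1 -0.52 without wt mice 3 and 4 and -0.36 at high Xist, Rpl11 0.035 with Xist as covariate and 0.031 with the length offset, and Rpl10 -0.20 with named pseudogenes or with rows sharing words. For Zmat3-/- against wt they were Rplp2 0.30, Rps2 0.52 and Rpl11 0.73 without wt mice 1 and 2, Rplp2 0.17, Rps2 0.39 and Rpl11 0.71 at low Xist, Rpl22l1 -0.32 without wt mice 3 and 4 and -0.25 at high Xist, Rpl11 0.16 with the surrogate variable, 0.058 with Xist as covariate and 0.15 with the length offset, and Rpl10 -0.15 with either sum. The cause was not tested. At high Xist the TKO group is 1 mouse.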
